A study of Homo sapiens with 4 samples.

Results

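The genes described here are the type I interferon response genes, a list of 39 genes that cells switch on when interferon alpha or beta reaches its receptor. They were found by name: each probe set whose only gene symbol in the platform annotation is on the list was taken, which gave 61 probe sets for 38 of the 39 genes, out of 41091 probe sets for 19775 genes. STAT2 was the member not analysed here. The members were not chosen by any value of these arrays, but the list was put together when earlier results of these data were known.

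The study measured total RNA from LN-229 cells, a line established from a human glioblastoma, on 1 Affymetrix 3' expression array per culture. In the induced cultures (2 arrays) doxycycline, spelled Doxocyclin in the labels, had been present for 48 h to turn on WIF1, which is secreted and captures WNT proteins. The control cultures (2 arrays) were untreated. The labels call the replicates of a group biological, and do not say whether the inducible cells are 1 clone or whether the controls carry the same construct. The labels describe no array with doxycycline but without induction of WIF1, so the drug and the protein cannot be told apart. In bulk RNA, a gene read in fewer cells and a gene with less RNA per cell cannot be told apart either.

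Type I interferons bind the receptor pair IFNAR1 and IFNAR2, whose kinases JAK1 and TYK2 activate a complex of STAT proteins with IRF9. That complex binds the interferon-stimulated response element (ISRE) in the promoters of the response genes. Their products detect viral RNA, block entry, replication or release of viruses, attach the ubiquitin-like protein ISG15 to other proteins, and feed back on the signal. Many are also kept at a low constant level without added interferon, and cytosolic nucleic acid can raise them too. In glioblastoma the interferon alpha and beta genes are often lost with the neighbouring tumour suppressor CDKN2A.

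The values are log2 intensities after robust multi-array averaging (RMA), so a difference of 1 is a doubling. Each gene is represented by its brightest probe set over the 4 arrays, and a mean level of at least 6.16, the array-wide median, is called bright and a lower one dim. Brightness also depends on the probes, so levels of different genes are set side by side only as bright or dim. Array medians lay between 6.15 and 6.19. The lineage markers VIM, NES and SOX2 had mean levels at the 99.9, 98.2 and 96.4 percentile of all probe sets, and 8 of 9 glioma lineage markers were bright, GFAP being the dim one. The leukocyte marker PTPRC lay at the 13.4 percentile, and of 4 measured markers each of leukocytes, plasmacytoid dendritic cells, endothelium and epithelium 1, 3, 2 and 1 were bright. WIF1 was read by 1 probe set at the 5.75 percentile, with 2.93 and 3.03 in the induced arrays against 2.98 and 2.90 in the controls, so WIF1 RNA was not seen above the floor in any array. The sources used here do not say whether the induced transcript carries the probes, and the word induced rests on the labels alone. The 3' minus 5' log2 difference of the ACTB control sets was 0.033 and 0.11 in the induced arrays and -0.036 and 0.021 in the controls, and that of GAPDH was -0.043 and -0.047 in the induced arrays and -0.067 and -0.069 in the controls. For both genes the induced arrays lay above the controls without overlap, and the part of RNA quality in the results below was not tested.

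After induction the interferon response genes differed from the controls by small amounts. Their median log2 difference, induced minus control, was -0.01 over 38 genes, against -0.00 over all 19775 genes, and the median size of the difference regardless of sign was 0.036 against 0.075. The differences ran from -0.22 for IFIT2 to 0.34 for IRF1, and 36 of 38 were smaller than 0.20 in size. By sign 14 genes were higher and 24 were counted as lower. The 24 include BST2, whose mean was 5.76 in both groups. Of all genes 9640 were higher and 10131 lower. Median centring moved all genes upward alike, to a median of 0.01 for the members and 0.02 for all genes, so signs of differences this small are those of the RMA scale. The gene with the largest difference, the transcription factor IRF1, was 1.27-fold higher.

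No member passed the test of limma with Benjamini-Hochberg adjustment over all probe sets: 0 of 38 genes were called, the smallest adjusted p being 0.472, and neither was any of the 19775 genes (0.0%). At an unadjusted p under 0.05, 1 member was higher (IRF1) and 2 were lower (IFIT2 and IFI35), where 6.48% of all genes were higher and 4.73% lower at that level. The 3 members are 7.89% of 38, below the 11.2% of all genes in either direction. The count of 2 lower members was 0 without the first control, without the second control or without the second induced array, and the count of 1 higher member was 2 when either the second induced array or the first control was left out. Both induced arrays lay above both controls in 5 members, or 13.2% (21.4% of all genes), and below both in 8 members, or 21.1% (22.4% of all genes). In the other 25 the groups overlapped. These shares are near or below those of all genes and show nothing particular to the list.

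The precision of the members can be read from their errors. The standard errors ran from 0.037 to 0.17, and the 95% intervals of the brightest sets of the 38 members lay between -0.54 and 0.51 on the log2 scale, that is between 0.687-fold and 1.42-fold. Over all 61 probe sets the intervals reached from -0.76 to 0.69. For 36 of 38 members the interval stayed within 0.5 log2 units of 0, and for 17 within 0.25. The widest intervals belonged to dim probe sets such as that of IFITM1. RMA compresses differences near the floor, so the bounds of the 12 dim members are less firm than those of the 26 bright ones.

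**Figure D1:**
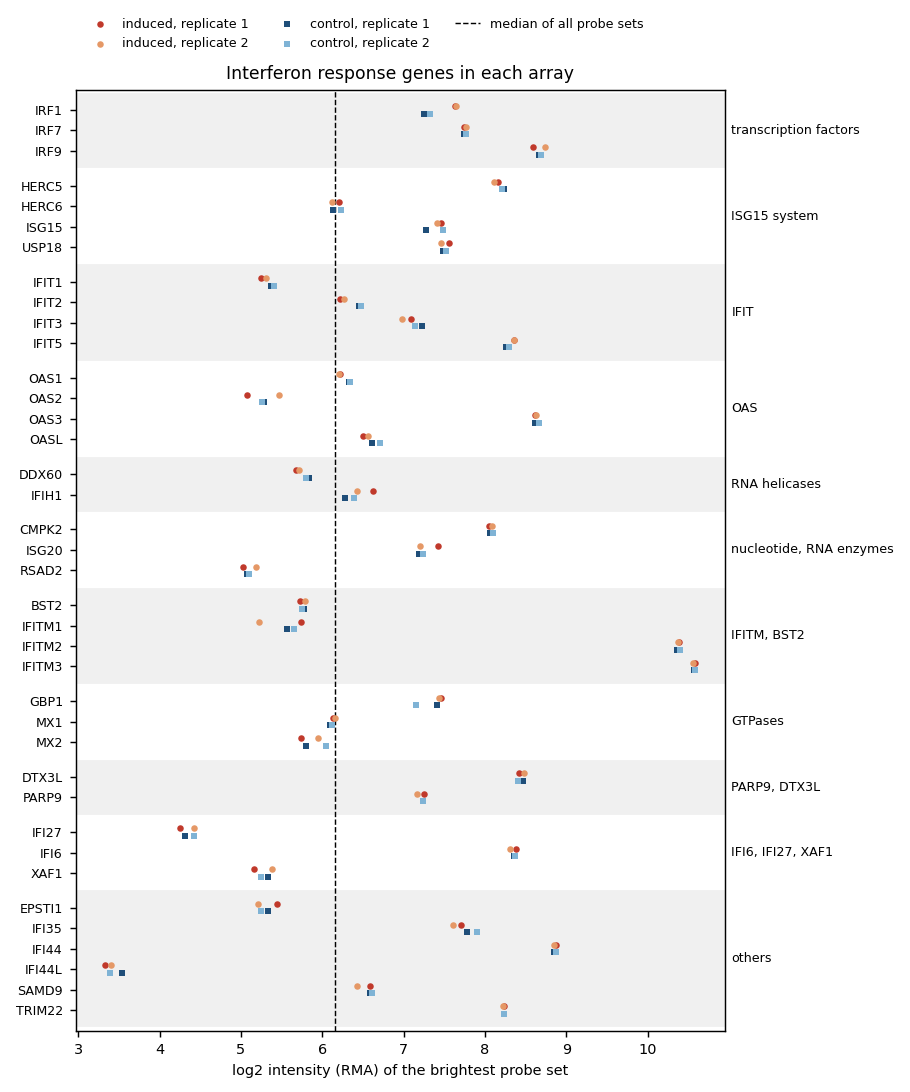
Log2 RMA intensity (x axis) of the brightest probe set of each of 38 interferon response genes (rows, grouped by role), with circles for the 2 induced arrays above squares for the 2 control arrays. The dashed line is the median of all probe sets at 6.16, to the right of which lie 26 genes; for IRF1 both circles lie to the right of both squares.

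The transcription factors of the response held the member with the largest difference of the 38. It is described as that extreme, and its unadjusted p does not allow for the choice among 38. IRF1, which is induced by interferons and by inflammatory cytokines and activates genes of innate immunity, had log2 levels of 7.63 and 7.64 in the induced arrays against 7.25 and 7.33 in the controls. Both induced arrays lay above both controls, and the difference was larger than the gap of 0.079 between the controls. The difference was 0.34 (SE 0.067, 95% interval 0.18 to 0.51, limma unadjusted p = 0.0018, adjusted p = 0.472).

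Its second, dimmer probe set read 6.74 and 6.83 in the induced arrays against 6.57 and 6.71 in the controls. The groups did not overlap there either, with a difference of 0.15 (SE 0.088, 95% interval -0.07 to 0.36). IRF7, the factor that amplifies interferon alpha production, read 7.75 and 7.77 in the induced arrays against 7.74 and 7.76 in the controls. IRF9, the DNA-binding part of the complex named above, read 8.59 and 8.73 in the induced arrays against 8.66 and 8.69 in the controls. Both IRF7 and IRF9 overlapped between the groups, and their differences of 0.01 (SE 0.060) and -0.02 (SE 0.065) were far inside their standard errors. A further probe set that the annotation assigns to both IRF9 and RNF31 overlapped as well.

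In the promoter windows most of the list had ISRE letters, and IRF1 was among the members that did not. RefSeq promoter windows of GRCh38.p14, from 250 bases before to 50 after a start site, were found for 30 of the 38 members and hold 27305 genes in all. There were none for IFIT2, IFITM2, IRF7, MX2, OAS2, OASL, TRIM22 and USP18. The core of the ISRE, searched as GAAANNGAAA on both strands, was in the windows of 23 of 30 members (76.7%) and of 4.38% of all genes. The element of STAT dimers that interferon gamma uses (GAS), searched as TTCNNNGAA, was in 10 of 30 members (33.3%) against 9.38% of all genes. An NF-kappaB type of site, searched as GGGANNNNCC on both strands, was in 11 of 30 (36.7%) against 29.0%. GAS reads the same on both strands, and none of these matches shows binding. The ISRE search fixed the spacing and covered these windows alone, so a missing match does not show that the element is missing. IRF1 is 1 of 7 members without the ISRE letters, with IRF9, IFI35, OAS1, CMPK2, HERC6 and XAF1. IFI35, like IRF1, had GAS and NF-kappaB type letters and no ISRE letters. The 7 had a median difference of -0.02 (range -0.18 to 0.34) and the 23 with the letters -0.01 (range -0.15 to 0.19).

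The 170 bases before the start site are given for IRF1 and IFI35, the members with the largest positive and the largest negative difference that have a window, and for 3 members with ISRE letters whose levels are described below, IFIT3, ISG15 and IFITM3. They run 5' to 3' on the gene's strand, with the letters of any of the 3 searched motifs in capitals. The stretch of IRF1 lies at chr5:132490774-132490943 (minus strand), that of IFI35 at chr17:43006614-43006783 (plus strand), that of IFIT3, the downstream one of its 2 RefSeq windows, at chr10:89332359-89332528 (plus strand), that of ISG15 at chr1:1013327-1013496 (plus strand) and that of IFITM3 at chr11:320861-321030 (minus strand).
IRF1: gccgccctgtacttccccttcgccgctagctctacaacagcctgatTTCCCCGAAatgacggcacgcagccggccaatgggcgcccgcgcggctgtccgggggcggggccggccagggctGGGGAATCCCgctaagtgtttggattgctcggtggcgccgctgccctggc
IFI35: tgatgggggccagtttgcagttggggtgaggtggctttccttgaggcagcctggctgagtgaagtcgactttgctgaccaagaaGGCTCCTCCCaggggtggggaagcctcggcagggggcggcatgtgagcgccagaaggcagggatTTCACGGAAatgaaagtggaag
IFIT3: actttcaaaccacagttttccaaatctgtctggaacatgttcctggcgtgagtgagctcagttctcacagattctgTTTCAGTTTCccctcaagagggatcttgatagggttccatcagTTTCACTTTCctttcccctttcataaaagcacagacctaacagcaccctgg
ISG15: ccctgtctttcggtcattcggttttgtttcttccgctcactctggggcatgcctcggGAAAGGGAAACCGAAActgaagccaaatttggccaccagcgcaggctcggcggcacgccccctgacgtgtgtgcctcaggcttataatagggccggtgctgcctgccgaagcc
IFITM3: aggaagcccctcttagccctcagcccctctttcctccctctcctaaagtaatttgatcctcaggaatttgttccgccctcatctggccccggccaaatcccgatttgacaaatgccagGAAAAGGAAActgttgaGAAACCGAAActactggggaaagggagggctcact
In IRF1 the capitals are a GAS match from -124 to -116 and an NF-kappaB type match from -50 to -41, counted from the start site, and in IFI35 an NF-kappaB type match from -86 to -77 and a GAS match from -22 to -14. In IFIT3 2 ISRE matches on the reverse strand stand at -94 to -85 and -51 to -42. The ISG15 stretch has 2 overlapping matches, from -113 to -98, and the IFITM3 stretch has matches at -52 to -43 and -35 to -26.

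The ISG15 system had small differences, from -0.08 for HERC5 to 0.06 for ISG15. ISG15 itself, the ubiquitin-like modifier, read 7.46 and 7.41 in the induced arrays against 7.27 and 7.49 in the controls. Its ligase HERC5 read 8.17 and 8.12 in the induced arrays against 8.23 and 8.21 in the controls. USP18, the protease that removes ISG15 and dampens the receptor, read 7.55 and 7.46 in the induced arrays against 7.49 and 7.52 in the controls. HERC5 was the one of these whose groups did not overlap, by a difference of -0.08 (SE 0.057) that did not pass the test (adjusted p = 0.647 with limma). HERC6, a relative of HERC5, read 6.21 and 6.12 in the induced arrays against 6.14 and 6.23 in the controls, and the groups overlapped.

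The IFIT proteins bind foreign or incompletely capped RNA through tetratricopeptide repeats, and 3 of the 4 genes had both induced arrays below both controls, as 22.4% of all genes did. IFIT2 read 6.22 and 6.26 in the induced arrays against 6.45 and 6.47 in the controls. IFIT3 read 7.09 and 6.99 in the induced arrays against 7.22 and 7.14 in the controls. The differences were -0.22 (SE 0.079, 95% interval -0.41 to -0.03) for IFIT2 and -0.15 (SE 0.077) for IFIT3, with limma adjusted p of 0.477 and 0.553.

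The dim IFIT1, which binds viral RNA caps directly, differed by -0.11 (SE 0.094), also without overlap. IFIT5 went the other way in its brightest probe set, with 8.36 and 8.35 in the induced arrays against 8.26 and 8.29 in the controls. Its other probe set, also bright, gave -0.13 (SE 0.063), with both induced arrays below both controls. The other probe sets of IFIT2 and IFIT3 gave -0.12 and -0.02, both with overlapping groups. In the RefSeq gene order IFIT2 lies next to IFIT3 and IFIT1 next to IFIT5 on chromosome 10. In their brightest sets the first pair had the same sign and the second pair opposite signs. With the other set of IFIT5 the second pair had the same sign as well.

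The oligoadenylate synthetases sense double-stranded RNA and make the messenger that activates RNase L. OAS1 read 6.21 and 6.21 in the induced arrays against 6.32 and 6.34 in the controls. OAS3, which prefers long double-stranded RNA, read 8.61 and 8.63 in the induced arrays against 8.62 and 8.66 in the controls. OASL, which lacks the synthetase activity and supports RNA sensing instead, read 6.49 and 6.56 in the induced arrays against 6.62 and 6.71 in the controls. OAS1 and OASL thus lay lower without overlap, by -0.12 (SE 0.079) and -0.14 (SE 0.082), but the second probe set of each lay higher without overlap, at 0.18 and 0.18. For OAS3 the groups overlapped. The 3 probe sets of OAS2 are all dim and gave 0.00, 0.37 and 0.20, from the brightest to the dimmest.

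The RNA helicase IFIH1 (MDA5), a cytosolic sensor of long double-stranded RNA, read 6.62 and 6.42 in the induced arrays against 6.28 and 6.39 in the controls. Its difference of 0.19 (SE 0.10, adjusted p = 0.562 with limma) rested on 1 probe set, since 2 dimmer ones gave -0.06 and -0.20. The helicase-like DDX60, which is dim, differed by -0.12 (SE 0.088). The kinase CMPK2 of mitochondrial nucleotide metabolism read 8.05 and 8.09 in the induced arrays against 8.06 and 8.10 in the controls. The exonuclease ISG20 read 7.42 and 7.20 in the induced arrays against 7.19 and 7.24 in the controls. CMPK2 and ISG20 overlapped between the groups, but the second probe set of ISG20 did not, with a difference of 0.18 (SE 0.072). RSAD2 (viperin), which makes a chain-terminating nucleotide, is the neighbour of CMPK2 on chromosome 2. Its brightest probe set was dim and overlapped between the groups, with a difference of 0.02 (SE 0.10).

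The IFITM proteins sit in endosomal and plasma membranes and hinder fusion of enveloped viruses. IFITM2 read 10.39 and 10.37 in the induced arrays against 10.36 and 10.40 in the controls. IFITM3 read 10.57 and 10.56 in the induced arrays against 10.57 and 10.58 in the controls. These were the tightest values of the list, with differences of 0.00 (SE 0.040) and -0.01 (SE 0.037) and 95% intervals inside 0.10 log2 units of 0. Both are read by sets of the _x_at type, whose probes can bind related transcripts, and the genes of this family are close in sequence, so the 2 readings may not be separate. IFITM1 read 5.74 and 5.22 in the induced arrays against 5.56 and 5.65 in the controls. The induced arrays lay on both sides of the controls, and the difference of -0.12 (SE 0.17) was that of the second induced array alone, being 0.13 without it. A set assigned to both IFITM1 and IFITM2 differed by -0.04. BST2 (tetherin), which holds budding virions at the cell surface, was dim with overlapping groups.

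The GTPases of the response bind viral nucleocapsids or intracellular membranes. GBP1 read 7.46 and 7.44 in the induced arrays against 7.41 and 7.15 in the controls. The groups did not overlap, but the difference of 0.17 (SE 0.0965) was smaller than the gap of 0.255 between the controls. Its 4 probe sets gave 0.17, 0.13, -0.12 and -0.38, from the brightest to the dimmest. The dynamin-like MX1 and MX2 were dim, just under the median, and differed by 0.04 (SE 0.082) and -0.08 (SE 0.12).

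PARP9 and DTX3L form a complex that modifies histones and viral proteins, and the genes are neighbours on chromosome 3. PARP9 read 7.25 and 7.17 in the induced arrays against 7.23 and 7.24 in the controls. DTX3L read 8.41 and 8.48 in the induced arrays against 8.46 and 8.41 in the controls. Both overlapped between the groups, with differences of -0.02 (SE 0.070) and 0.01 (SE 0.057). IFI6, which counters apoptosis, read 8.38 and 8.30 in the induced arrays against 8.35 and 8.37 in the controls. The related IFI27 and the pro-apoptotic XAF1 were dim, and no group of these 3 genes stood apart from its counterpart in the brightest probe set.

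IFI35, a leucine zipper protein of the innate response, had the largest negative difference after IFIT2. It read 7.71 and 7.60 in the induced arrays against 7.78 and 7.90 in the controls. The difference was -0.18 (SE 0.075, 95% interval -0.36 to -0.00, limma adjusted p = 0.496) in its only probe set. IFI44 read 8.87 and 8.84 in the induced arrays against 8.85 and 8.88 in the controls, and its neighbour IFI44L stood at the 9.95 percentile. SAMD9, a restriction factor of poxviruses, read 6.59 and 6.42 in the induced arrays against 6.58 and 6.61 in the controls. TRIM22, a RING-finger antiviral protein, read 8.24 and 8.22 in the induced arrays against 8.24 and 8.24 in the controls. The groups overlapped in IFI44, SAMD9 and TRIM22, whereas the dimmer probe set of SAMD9 gave -0.27 (SE 0.11) without overlap.

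The 11 members without values in each array above (IFIT1, IFI27, IFI44L, MX1, MX2, OAS2, RSAD2, BST2, XAF1, DDX60 and EPSTI1) were all dim. The 12 dim members as a whole had differences between -0.12 and 0.04, and 9 of them overlapped between the groups. EPSTI1, a gene first known from epithelial and stromal cultures, differed by 0.03 (SE 0.12).

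**Figure D2:**
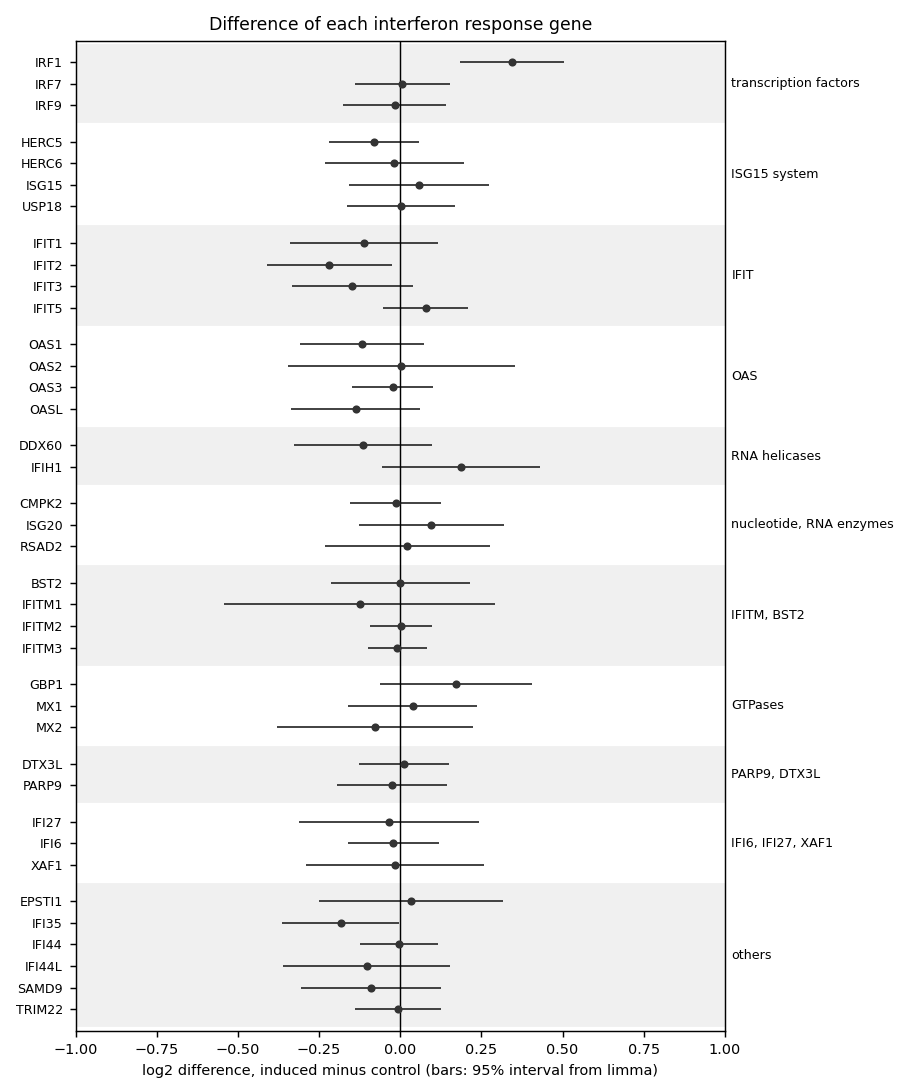
Log2 difference, induced minus control (x axis), of 38 interferon response genes with 95% intervals from limma (bars), in rows grouped by role. The interval of IRF1 (0.18 to 0.51) lies right of 0, those of IFIT2 and IFI35 lie just left of it, and the other 35 cross it.

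Of the 38 genes 18 had more than 1 probe set, and in 10 of the 18 the probe sets disagreed in sign. The 23 sets that did not represent a gene were mostly dimmer (14 dim, 9 bright), with differences between -0.38 and 0.37. At an unadjusted p under 0.05, 3 of the 23 were higher (a set each of ISG20, OAS2 and XAF1) and 1 was lower (SAMD9). The shares over all genes at that level were 6.48% higher and 4.73% lower. Both induced arrays lay above both controls in 9 of the 23 (39.1%) and below in 4 (17.4%), against 21.4% and 22.4% of all genes. These shares of all genes are counted on the brightest set of each gene. They are not matched to the 23 mostly dimmer sets, so whether the 23 differ from like sets was not tested. No probe set of the 61 passed after adjustment. Beside the genes described above, the other sets gave 0.03 for HERC6, 0.01 for OAS3, 0.19 for PARP9, -0.04 for EPSTI1, and 0.26 and -0.04 for XAF1, each with at least 1 set opposite in sign to the brightest. IRF1, ISG20, RSAD2 and OAS2 had all sets above 0, and IFIT2, IFIT3, IFI44 and SAMD9 had all sets below 0.

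**Figure D3:**
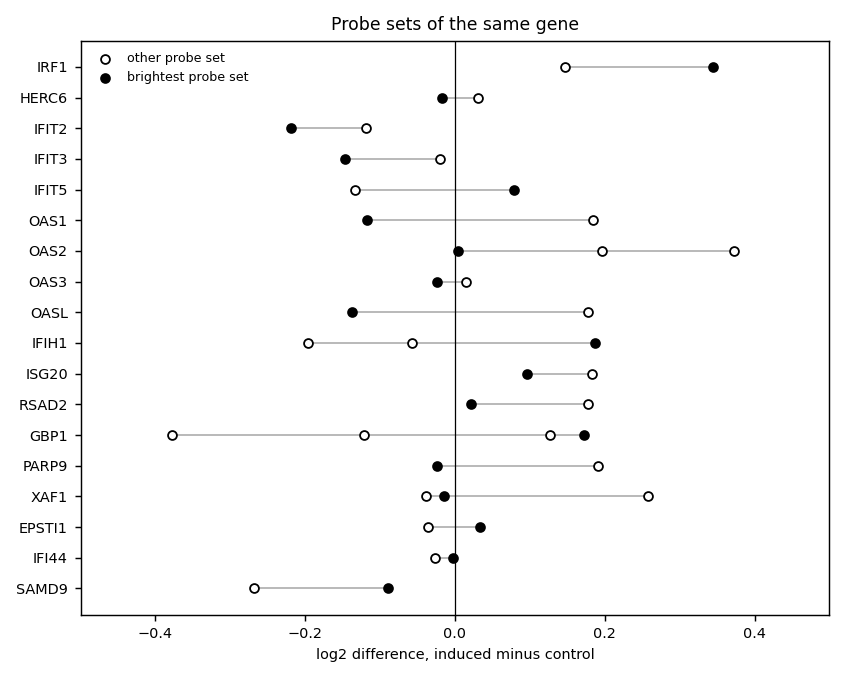
Log2 difference, induced minus control (x axis), of every probe set of the 18 interferon response genes with more than 1 set (rows), with the brightest set filled and the others open. Both sets of IRF1 lie right of 0, and the 4 sets of GBP1 span -0.38 to 0.17.

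**Figure D4:**
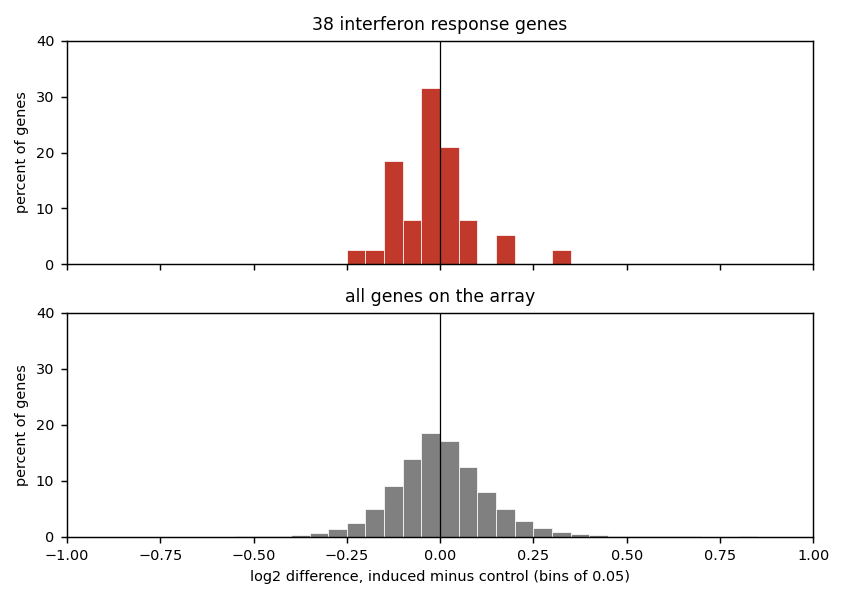
Share of genes in percent (y axis) by log2 difference, induced minus control (x axis, bins of 0.05, shown from -1 to 1), for the 38 interferon response genes (top) and all 19775 genes (bottom). Most members lie in the middle bins, with 31.6% in the bin from -0.05 to 0 against 18.5% of all genes, and IRF1 is the bar near 0.34.

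Other genes of the pathway were followed in 7 lists, with 124 of 134 listed genes measured. None passed the adjusted test in limma, and unadjusted p values under 0.05 were found for 7 higher and 8 lower genes, together 12.1% against 11.2% of all genes (6.48% higher and 4.73% lower). The counts of the single lists below are small and are to be read against these shares of all genes. The 7 became 4, 4 and 2 without the first control, the second control and the second induced array, and the 8 became 2, 5, 5 and 2 without the first control, the second control, the first induced and the second induced array. Their median difference was -0.00. Both induced arrays lay above both controls in 18.5% of them and below in 21.8%, near the shares of all genes given above.

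The receptor and kinase list was bright in all 9 measured genes. At that unadjusted level 2 of them were lower and none higher in the brightest set. IFNAR1, the signalling chain of the type I receptor, read 8.30 and 8.23 in the induced arrays against 8.35 and 8.41 in the controls. IFNAR2, its ligand-binding partner, read 8.89 and 8.92 in the induced arrays against 9.00 and 8.98 in the controls. In their brightest sets both chains lay lower without overlap, as 22.4% of all genes did, by -0.11 (SE 0.060) and -0.08 (SE 0.049). Neither passed (adjusted p of 0.556 and 0.582 with limma). The other sets of IFNAR1 gave -0.16 without overlap, and -0.03 and -0.02 with overlapping groups. Those of IFNAR2 gave -0.01 and 0.03, both with overlapping groups. The 2 genes of this list with the smallest p belong to interferon gamma signalling. IFNGR2, a chain of its receptor, read 11.03 and 10.96 in the induced arrays against 11.14 and 11.21 in the controls, a difference of -0.18 (SE 0.044, adjusted p = 0.472 with limma). JAK2, the kinase on that chain, read 6.75 and 6.67 in the induced arrays against 6.99 and 6.93 in the controls. Its difference was -0.26 (SE 0.077), and its dimmer probe sets gave 0.08 and -0.09.

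The ligand list was dim in all 18 measured genes. IFNB1, which encodes interferon beta, read 3.95 and 4.39 in the induced arrays against 4.13 and 4.13 in the controls, at the 17.1 percentile. The list had a median difference of 0.14, with 4 genes above the controls (IFNA4, IFNA17, IFNL1 and IFNL2) and 1 below (IFNK) at that level and none called. These 5 are named here after their values were seen. The 11 interferon alpha genes are near-identical copies, and 7 of the 18 ligand sets are of the _x_at type. Those 7 had differences of 0.11 to 0.46 and the other 11 a median of 0.04. The smallest p in the list was that of IFNL2, a type III interferon. It read 4.33 and 4.24 in the induced arrays against 3.87 and 3.68 in the controls, a difference of 0.51 (SE 0.11, adjusted p = 0.472 with limma) at the 15.8 percentile.

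Sensors and adaptors numbered 17, with none at an unadjusted p under 0.05 in the brightest set. Their bright members of smallest p were the kinase TBK1 at 0.07 (SE 0.042), the factor IRF5 at -0.13 (SE 0.086), the nucleic acid sensor ZBP1 at -0.13 (SE 0.10) and the RIG-I ligase TRIM25 at -0.05 (SE 0.052). The other sets of IRF5 gave 0.04 and -0.17, both with overlapping groups. The dimmer set of ZBP1 gave -0.32, and that of TRIM25 gave 0.19, opposite in sign to its brightest set. Those of ZBP1 and TRIM25 had unadjusted p values under 0.05 (0.0198 and 0.0379) and did not pass in limma. Among 9 negative regulators 1 reached that level in the brightest set, the SUMO ligase PIAS1. Its difference was -0.26 (SE 0.099, adjusted p = 0.482 with limma). Its other sets gave -0.02 and -0.08. The phosphatases PTPN2, PTPN6 and PTPN11 differed by 0.13, 0.12 and 0.08 in their brightest sets. The sets of PTPN2 and PTPN11 disagreed in sign. Another bright set of PTPN11 gave -0.15 (SE 0.041) without overlap, whereas its brightest set overlapped between the groups. All sets of PTPN11 spanned -0.24 to 0.25. Those of PTPN2 spanned -0.19 to 0.33, with 0.30 (SE 0.093) and 0.33 (SE 0.095) in dim sets. The sets at -0.15, 0.30 and 0.33 had unadjusted p values of 0.0091, 0.0168 and 0.0114 in limma and did not pass.

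Further response genes outside the 39 numbered 33 measured, with a median of -0.01, and 2 of them were lower at that level. The 2 were UBE2L6, the conjugating enzyme of ISG15, at -0.19 (SE 0.066), and RNF213, a large ubiquitin ligase, at -0.15 (SE 0.060) in the brightest of its 8 sets, which spanned -0.15 to 0.05. ZNFX1, an RNA helicase, and N4BP1, an RNA nuclease, followed at -0.13 (SE 0.053) and 0.12 (SE 0.048), and the 4 sets of N4BP1 disagreed in sign. UBE2L6 read 8.17 and 8.10 in the induced arrays against 8.27 and 8.38 in the controls, and its groups did not overlap. Of 21 genes shared with the interferon gamma response, 2 were higher (GBP3 and CXCL9) and 1 lower (CXCL11) at that level. The dim chemokine genes CXCL9 and CXCL11, named after their values were seen, differed by 0.46 and -0.41. GBP3, a guanylate-binding protein related to GBP1, read 7.97 and 7.98 in the induced arrays against 7.74 and 7.76 in the controls. Its difference of 0.23 (SE 0.058, adjusted p = 0.472 with limma) came from its only probe set. The trypanolytic protein APOL1, the tRNA synthetase WARS1 and the adhesion molecule ICAM1 differed by -0.14, 0.08 and -0.14 in their brightest sets. The other set of WARS1 gave -0.05, with both induced arrays below both controls. For ICAM1 the groups overlapped in the brightest set. Its other sets gave 0.10 and 0.13, with both induced arrays above both controls.

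**Figure D5:**
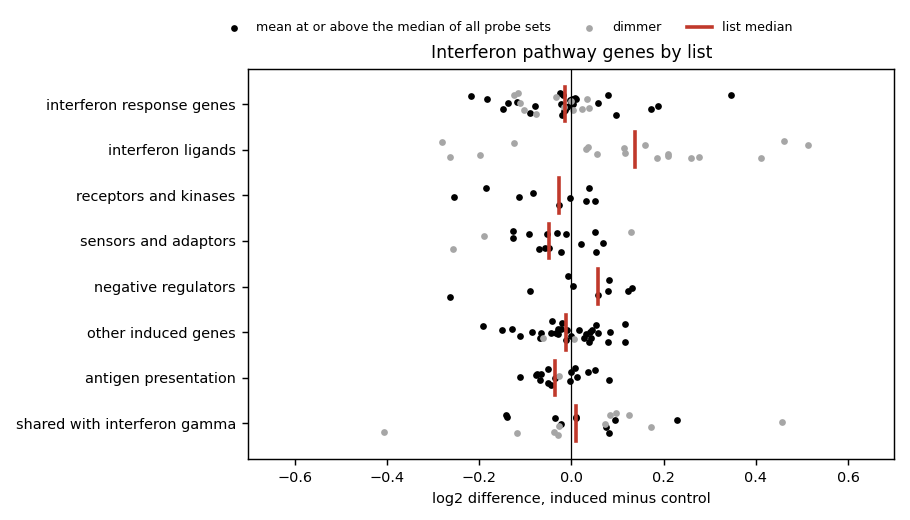
Log2 difference, induced minus control (x axis), of each measured gene in the interferon response list and in 7 other lists of the pathway (rows), with bright genes in black, dim genes in grey and list medians as red lines. The median of the ligand list, whose 18 genes are all dim, is 0.14, and those of the other lists lie between -0.05 and 0.06.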

How the data were processed

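Per the labels, total RNA of 4 LN-229 cultures was labelled with biotin and hybridised, 1 array each. The deposited values are log2 intensities per probe set, which the authors produced by RMA using affy (per the submitters' processing notes); versions are not given in the sources used here. RMA equalises the arrays' distributions, so a shift of most genes would not be seen. Of the rows, 62 control sets were left out and 54613 tested. The platform annotation gives 41091 of them 1 symbol, 1801 several and 11721 none; 41037 matched RefSeq by gene identifier and 0 symbols changed. Groups came from the titles.

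The group effect was fitted by lmFit and eBayes (trend = TRUE) of limma 3.58.1 under R 4.3.3. Its 2-sided p values, on 6.27 degrees of freedom, were adjusted by Benjamini-Hochberg across the 54613 sets, and those under 0.05 count as passing. The number of arrays limits precision. Members, lists and alternatives were chosen with earlier results of these data known. Values in every array are given for bright members and for the 5 largest differences in each direction, and of each pathway list up to 4 bright genes of smallest p are named, with IFNAR1, IFNAR2, IFNB1 and WIF1; IFNA4, IFNA17, IFNK, IFNL1, IFNL2, CXCL9, CXCL11, HLA-DRA, CD74 and CIITA were added after their values were seen. Listed genes without a probe set of their own symbol are not analysed here. The fit was tested on simulated data with known changes. The alternative settings tried were median centring, cyclic loess, averaging of a gene's sets, a filter on dim sets, eBayes robust or trend-free, a replicate block, and omission of each array.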

Additional observations from a re-analysis of the deposited data

How the results depend on the processing

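No interferon response gene and no other pathway gene was called by limma under any of the 11 alternatives run. IRF1 stayed between 0.25 and 0.38, with adjusted p values from 0.300 to 0.901. The count of members lower at an unadjusted p under 0.05, 2 as reported, was 1 with the replicate block, without the intensity trend, with cyclic loess and with the mean of probe sets, and 0 after median centring. It was 0 to 2 when an array was left out, and the count of higher members was then 1 to 2. The counts of other pathway genes, 7 higher and 8 lower, had 3 higher with the replicate block and 2 higher with the filter on dim sets, where 89 genes remained in the test, and were 2 to 7 higher and 2 to 5 lower when an array was left out. Each of the 4 arrays moved one of these counts by over 1.5 times. Leaving out an array leaves 1 in its group and assumes for it the other group's spread. The members' median of -0.0147 was 0.01 after median centring and -0.0012 with cyclic loess, where the median of all genes was 0.0216 and 0.0055, and -0.0302 to -0.0043 when an array was left out. The cause of these changes was not tested.

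Same-numbered arrays shared little of their deviations (correlation 0.056 over all probe sets and 0.107 over the bright ones), and the labels say nothing of a shared day, so the replicate number was not used as a pairing. Of 580 values of 53 named genes under alternatives, 529 kept their sign and 51 turned it, none of them called. With cyclic loess the turned differences were 0.0012 for IFI44, -0.009 for IFITM2, 0.0037 for HERC6, 0.0012 for CMPK2, 0.0004 for PARP9 and 0.0071 for TRIM22. After median centring, which shifted all genes upward alike and so changes no gene relative to the others, they were 0.0039 for IFI6, 0.0217 for IFI44, 0.0161 for IFITM3, 0.0011 for OAS3, 0.0082 for IRF9, 0.0067 for HERC6, 0.0104 for CMPK2, 0.0001 for PARP9 and 0.0186 for TRIM22. With the mean of probe sets they were -0.0273 for IFIT5, -0.0221 for IFIH1, 0.0335 for OAS1, 0.02 for OASL, 0.0065 for HERC6, 0.0831 for PARP9, -0.0502 for GBP1, 0.0695 for TRIM25, -0.0374 for PTPN11, -0.0195 for B2M and 0.0317 for ICAM1. When an array was left out, the range was -0.0594 to 0.0178 for IFI6, -0.017 to 0.0111 for IFI44, -0.0183 to 0.0227 for IFITM2, -0.0176 to 0.0005 for IFITM3, -0.0505 to 0.166 for ISG15, -0.0164 to 0.2086 for ISG20, -0.0048 to 0.0187 for IRF7, -0.0892 to 0.0563 for IRF9, -0.046 to 0.0518 for USP18, -0.0641 to 0.0281 for HERC6, -0.0364 to 0.0079 for CMPK2, -0.0676 to 0.0185 for PARP9, -0.0234 to 0.0447 for DTX3L, -0.0144 to 0.0024 for TRIM22, -0.3818 to 0.1332 for IFITM1, -0.0066 to 0.1696 for PTPN11, -0.1848 to 0.2561 for IFNB1 and -0.007 to 0.092 for WIF1.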

Other observations

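Antigen presentation genes, many of which interferons raise in other cells, were bright in 16 of 17 measured cases, with a median at the 94.2 percentile of all probe sets. They differed little between the groups, with a median difference of -0.04. None was called by limma, and unadjusted p values under 0.05 were found for 2 of them, B2M (higher) and HLA-E (lower), where 6.48% of all genes were higher and 4.73% lower. B2M, the light chain of class I molecules, read 13.47 and 13.47 in the induced arrays against 13.42 and 13.36 in the controls, a difference of 0.08 (SE 0.030). Its dimmer sets gave 0.04, and -0.18 with both induced arrays below both controls. HLA-E, which presents leader peptides to natural killer cells, read 10.82 and 10.79 in the induced arrays against 10.96 and 10.87 in the controls, a difference of -0.11 (SE 0.043). Its dimmer sets gave -0.12, and -0.07 with overlapping groups. The brightest set and the set at -0.12 are of the _x_at type, whose probes can bind related transcripts. The peptide transporter subunit TAP1 and the immunoproteasome subunit PSMB10 differed by -0.07 and -0.08. Class II genes were bright as well. HLA-DRA, a chain of the class II molecule DR, read 13.42 and 13.47 in the induced arrays against 13.50 and 13.46 in the controls, at the 99.7 percentile. Its chaperone CD74 stood at the 96.8 percentile and the class II transactivator CIITA at the 78.0 percentile, and the groups overlapped in these 3 genes.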
